A study of Mus musculus with 6 samples.

Results

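The genes described here encode the scaffold and channel proteins of the nuclear pore and the receptors that carry cargo through it. They were taken as every gene row whose symbol began with Nup, Kpna, Kpnb, Ipo, Xpo or Tnpo followed by a number, together with Xpot, which gave 45 of 23284 rows. Of these, 41 had enough reads to be tested among 10512 tested genes. The samples were polyadenylated RNA of 6 preparations of erythroblasts, the nucleated precursors of red cells, from C57BL/6 mouse embryos at E10.5, collected by flow cytometry as live cells carrying Ter119, a red cell surface antigen, and CD71, the transferrin receptor. The null group had 3 libraries of the genotype Setd8 fl/fl with EpoR Cre, a recombinase driven by the erythropoietin receptor gene and so active in the erythroid lineage. The control group had 3 libraries, of which replicates 1 and 3 were Setd8 +/+ with EpoRCre and replicate 2 was Setd8 fl/fl without Cre. Setd8 encodes a histone methyltransferase. The sources used here give blood of the embryo in one place and liver in another, and do not state whether embryos were pooled or littermates.

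Nuclear pores are large rings of nucleoporins set into the nuclear envelope. An outer ring built of Y-shaped complexes and an inner ring form the scaffold, and nucleoporins rich in phenylalanine and glycine repeats fill the channel. Importins bind cargo in the cytoplasm and release it in the nucleus when they meet the GTP-bound form of the small GTPase Ran, whereas exportins bind cargo together with Ran-GTP and let it go in the cytoplasm. Maturing erythroblasts condense their nucleus, and Xpo7, an exportin abundant in late erythroid cells, is known for a role in that step.

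The sample titles fell into 2 sets. Control replicates 1 and 2 and null replicate 1 had titles without a trailing letter (the unlettered set), and control replicate 3 and null replicates 2 and 3 had a letter (the lettered set). The sources used here do not say what the letter stands for. The comparison of null with control was therefore made by edgeR's quasi-likelihood test with the title set as a term (set-adjusted) and again with group as the only term (group alone). Values are counts per 1000000 gene reads (CPM), scaled by edgeR's TMM factors, the log2 ratio is null over control, SE is its standard error, and a gene rose or fell where the Benjamini-Hochberg adjusted p over all tested genes was under 0.05.

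Libraries held 7756940 to 21434719 gene reads, and globin genes took 37.1% to 45.2% of these in controls and 26.5% to 39.9% in null cells. Setd8 had 73.9, 74.8 and 203 CPM in control replicates 1, 2 and 3 and 48.9, 100 and 96.3 CPM in null replicates 1, 2 and 3, so the groups overlapped across the sets and not within them (set-adjusted log2 ratio -0.83, SE 0.17, adjusted p = 0.00911 by edgeR; group alone -0.52, adjusted p = 0.702). Reads remained in null cells, and counts over the whole gene do not show which exons they came from. Of 12 erythroid markers, 11 were tested, 0 rose and 3 fell set-adjusted, beside 8.65% and 4.16% of all tested genes. The 3 were Epor, Hba-x and Tfrc, the gene of the sorting antigen CD71 (log2 ratio -0.92, adjusted p = 0.00363 by edgeR). The summed level of 9 macrophage markers ran from 1.86 to 9.35 CPM in controls and from 30.9 to 74.8 CPM in null cells, that of 8 endothelial markers from 3.73 to 11.95 and from 23.6 to 33.3 CPM (Emcn at 0 reads in all libraries), that of 7 megakaryocyte markers from 14.2 to 31.2 and from 40.8 to 85.9 CPM, and that of 6 progenitor markers from 1.63 to 5.02 and from 10.6 to 75.7 CPM. Of these lists 3, 2, 1 and 1 genes rose set-adjusted, of 6, 3, 4 and 3 tested, and 0 fell. Among all tested genes 8.65% rose and 4.16% fell. Egfl7, which did not pass (log2 ratio 0.98, adjusted p = 0.116 by edgeR), made up most of the endothelial sum except in null replicate 1. It stood at 23.2 and 17.9 CPM in null replicates 2 and 3. Pecam1 and Tek rose, and Esam had reads in null libraries only. Cdh5 had at most 1 read per library. Kdr had 47 reads in null replicate 1 and at most 2 in any other library. Tie1 had 7 reads in control replicate 3 and at most 1 in any other. The megakaryocyte sum in null cells was mostly Itga2b, at 36.6, 67.1 and 50.1 CPM. The log2 ratios of Gp9, Pf4 and Gp1bb were -0.37, 0.10 and 1.14 and did not pass. The highest progenitor sum, in null replicate 3, was mostly Mpo at 61.3 CPM, where Kit had 1 read and Cd34 0. The part of these lists in the values given here was not tested. Hepatic markers summed to at most 4.21 CPM in any library, with Alb at 0 reads in all libraries. Y-linked transcripts were present in control replicate 1 and in all null libraries and near 0 in control replicates 2 and 3. In bulk RNA, fewer cells of a type and less RNA per cell cannot be told apart.

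Promoters of members that fell together, as described further on, are shown first for the receptor genes Ipo5, Kpnb1 and Xpo1 and the basket gene Nup50. Each sequence is the 250 bases before the RefSeq start of transcription in build GRCm38.p6, 5′ to 3′ in the direction of the gene. They lie at chr14:120910944-120911193 on the plus strand (Ipo5, which has a second annotated start with no match to the motifs marked here), chr11:97187893-97188142 on the minus strand (Kpnb1), chr11:23255791-23256040 on the plus strand (Xpo1) and chr15:84923178-84923427 on the plus strand (Nup50). Capitals mark matches on either strand to the CCAAT box (CCAAT), to the GC box (GGGCGG) and to the palindromic NRF1 motif.
Ipo5: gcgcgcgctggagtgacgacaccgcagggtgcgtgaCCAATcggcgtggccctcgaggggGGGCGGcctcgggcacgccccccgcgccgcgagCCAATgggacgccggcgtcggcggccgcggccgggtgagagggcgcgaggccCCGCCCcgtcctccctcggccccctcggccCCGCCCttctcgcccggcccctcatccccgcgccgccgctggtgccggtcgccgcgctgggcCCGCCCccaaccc
Kpnb1: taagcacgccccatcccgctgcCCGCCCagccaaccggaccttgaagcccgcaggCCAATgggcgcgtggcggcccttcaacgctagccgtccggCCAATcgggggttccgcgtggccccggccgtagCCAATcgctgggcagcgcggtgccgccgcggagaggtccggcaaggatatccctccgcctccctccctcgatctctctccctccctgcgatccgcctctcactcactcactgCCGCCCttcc
Xpo1: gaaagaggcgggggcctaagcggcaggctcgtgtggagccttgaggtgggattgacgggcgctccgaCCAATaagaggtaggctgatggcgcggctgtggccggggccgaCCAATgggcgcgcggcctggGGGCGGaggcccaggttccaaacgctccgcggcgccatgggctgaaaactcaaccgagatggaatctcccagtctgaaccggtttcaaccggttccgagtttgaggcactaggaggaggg
Nup50: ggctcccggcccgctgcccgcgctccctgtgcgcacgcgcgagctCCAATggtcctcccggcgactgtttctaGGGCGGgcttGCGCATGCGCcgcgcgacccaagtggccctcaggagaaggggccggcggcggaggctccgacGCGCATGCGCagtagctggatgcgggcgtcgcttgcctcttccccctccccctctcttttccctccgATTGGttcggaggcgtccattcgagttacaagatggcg

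These 4 were picked, after the motifs were counted, from the 6 members that fell and hold both a CCAAT box and a GC box (the others are Nup62 and Nup93), and Nup50 holds the NRF1 motif as well. RefSeq promoters of 300 bases, reaching 50 bases past the start, were matched by symbol for 33 of the 41 tested members, and for 11 of the 13 members that fell. Of those 11, 7 held CCAAT and 8 held GGGCGG, where 44.1% and 70.7% of the tested genes with a promoter did (41.1% and 38.2% of all 27025 promoter symbols). Both motifs stood together in the promoters of 6 of the 11 and in 29.0% of tested genes. Ipo11 held no GC box, Nup210 and Xpot held no CCAAT box, and Nup54 and Tnpo3 held neither. Over the 33 members 18 held CCAAT, 24 held GGGCGG and 14 held both. The NRF1 motif was in 4 members (Nup50, Nup62, Nup107 and Xpo5) against 2.71% of tested genes, and the YY1 motif in 4 (Nup50, Nup88, Nup188 and Nup205) against 2.76%. The cell cycle motif TTTGAA was in 6 members and in 0 of the 11 that fell, against 13.9% of tested genes, and the E2F motifs TTTCCCGC and TTTGGCGC were in 1 member, Nup210, and in 0. Other motifs were searched as well. The ETS motif CCGGAAG was in 6 members against 22.6% of tested genes, and the CACCC box in 1 against 4.48%. The GATA motif AGATAA was in 2, Ipo5 and Tnpo3, which both fell, against 7.72%, and TGATAA in 0 against 5.14%. The motif TGACGTCA was in 2 against 3.97%, and a p53 half-site in 1, Nup93, against 7.79%. Both strands were searched and motifs could overlap. A match describes the letters in the window and shows no binding.

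Set-adjusted, 13 of the 41 tested pore and transport receptor genes fell in null cells (31.7%) and 0 rose, where 4.16% of all tested genes fell and 8.65% rose. The log2 ratio was negative for 40 of 41 members, against 47.6% of all tested genes, and the single member with a positive ratio was Xpo7. The median over the 41 members was -0.57 and that of all tested genes 0.044. Fitted reductions of the 13 members ran from 1.56-fold for Nup62, a channel protein, to 2.1-fold for Ipo5, an importin. With group alone 0 members passed in either direction by edgeR, where 0.00951% of all genes fell and 1.14% rose. At an unadjusted p under 0.05, 9 of the 41 members were lower and 0 higher, beside 525 and 1116 of the 10512 tested genes. The ratio was negative for 36 members, against 43.7% of all genes, with a median of -0.50 beside 0.13 for all genes.

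**Figure D1:**
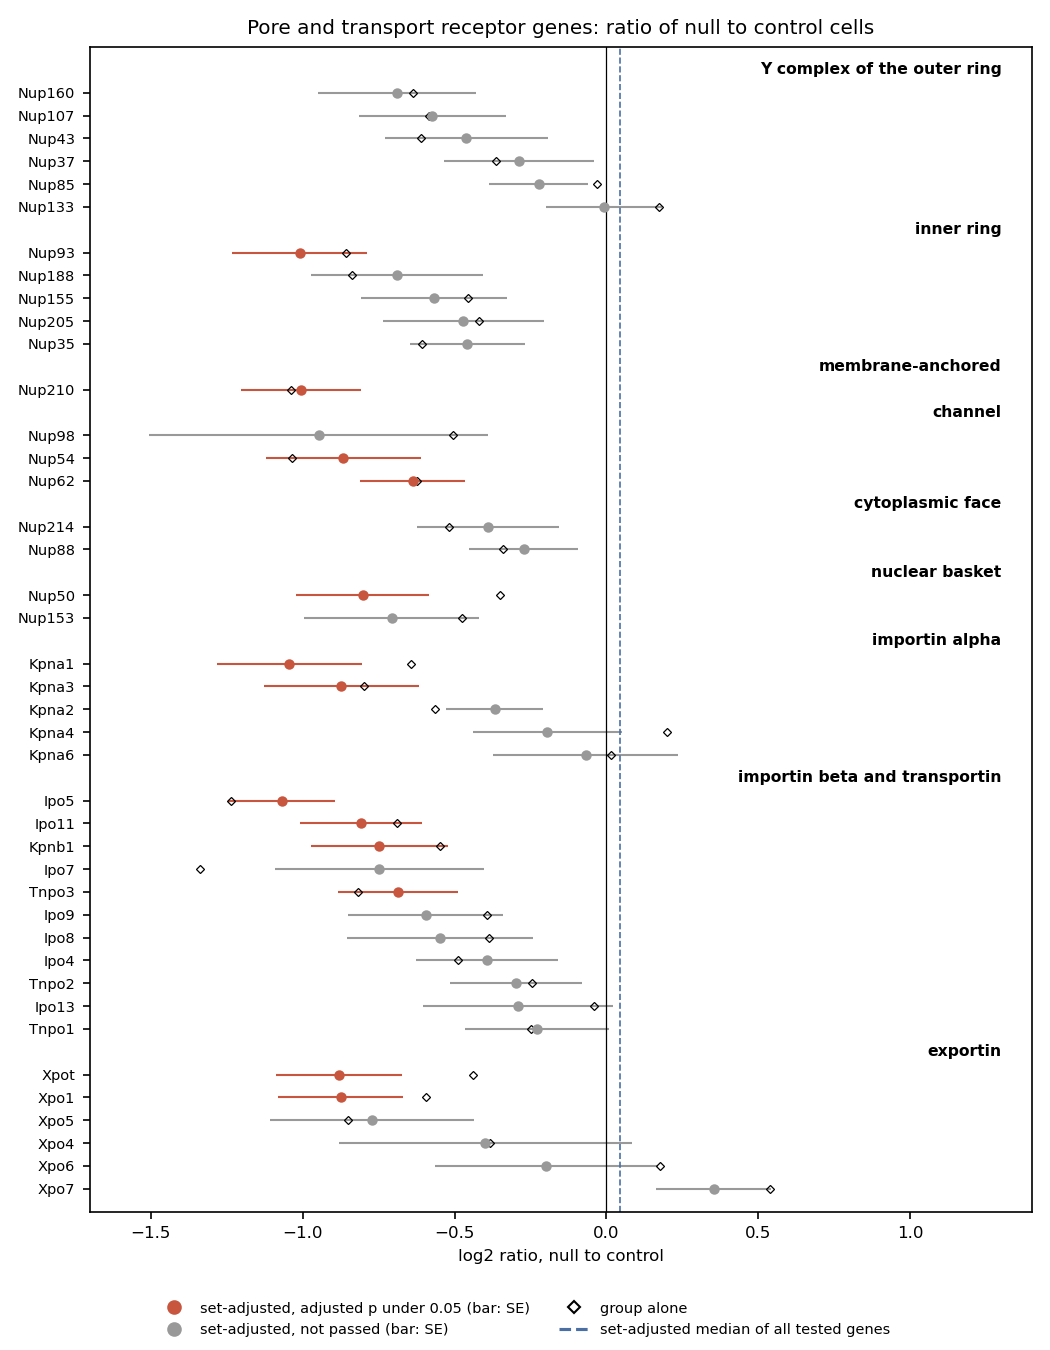
Log2 ratio of null to control for the 41 tested members, ordered by role; filled points are set-adjusted ratios with their SE, coloured where the adjusted p was under 0.05, and open diamonds are ratios with group alone. Apart from Xpo7 at 0.35, every set-adjusted ratio lies below 0, and the dashed line marks the median of all tested genes at 0.044.

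**Figure D2:**
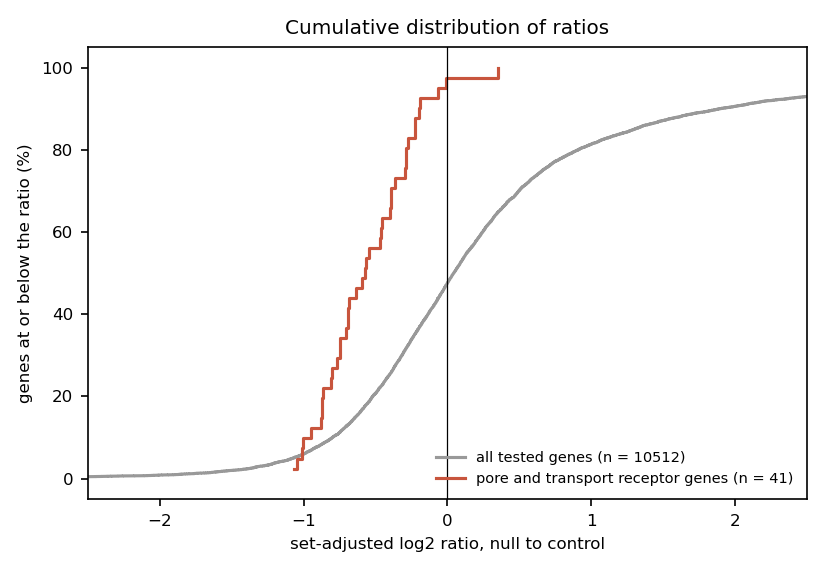
Cumulative share in percent of genes at or below each set-adjusted log2 ratio, for the 41 tested members and for all 10512 tested genes; the axis is limited to a range that leaves some of all genes outside. The curve of the members reaches 97.6% at a ratio of 0, where that of all genes stands at 47.6%.

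The number of members that fell depended on which libraries entered. It was 5, 6 and 4 without control replicates 1, 2 and 3 in turn, where 1.98%, 1.92% and 1.62% of all tested genes fell. Without null replicates 1, 2 and 3 in turn it was 0, 8 and 17, where 0.368%, 2.13% and 6.68% of all tested genes fell. With all libraries 4.16% of all tested genes fell. Leaving out null replicate 1 took the last null library from the unlettered set, and leaving out control replicate 3 took the last control from the lettered set. With Y-linked transcripts as a further term 0 members passed, and 0.59% of all tested genes fell. All 13 members kept a negative ratio in each of these fits. The fits reuse the libraries by which the 13 were picked, so the kept sign is no separate support. Ipo5 and Nup93 passed in every fit that left out 1 library except the one without null replicate 1 (adjusted p = 0.0636 and 0.198 by edgeR).

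Counts by role stand beside these shares of all tested genes set-adjusted: 4.16% fell and 47.6% had a negative ratio. In 9.16% of all tested genes all null libraries lay below all controls. The inner ring, which holds the pore's scaffold at the membrane, had 1 of 5 members that fell. The ratio was negative in all 5, and the groups did not overlap in 4. Nup93, a linker that joins this ring to the channel, stood at 106, 124 and 124 CPM in control replicates 1, 2 and 3 and at 47.3, 58.9 and 88.9 CPM in null replicates 1, 2 and 3. All null libraries were below all controls, and null replicate 3 was the nearest to them. Nup93 fell by 1.01 in log2 (SE 0.22, adjusted p = 0.0128 by edgeR's quasi-likelihood test; group alone -0.86, adjusted p = 0.221). The other 4, Nup35, Nup155, Nup188 and Nup205, had ratios from -0.69 to -0.46 and did not pass. Nup188 shared 13.2% of its exon bases with other annotated genes.

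Nup210, a glycoprotein that spans the membrane beside the ring, was lower in null cells with little spread within either group. Its levels were 88.0, 77.8 and 78.6 CPM in controls and 41.8, 34.0 and 43.3 CPM in null cells. The groups were far apart, at 81.5 ± 5.70 and 39.7 ± 4.98 CPM (SD, n = 3 each), and the sets did not differ in it. The log2 ratio was -1.01 (SE 0.20, adjusted p = 0.00696 by edgeR), -0.98 within the unlettered and -1.03 within the lettered set, and -1.04 with group alone (adjusted p = 0.0933). Its relative Nup210l had 1 to 24 reads per library and was not tested.

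Of the channel proteins, which carry the repeats that meet the transport receptors, 2 of 3 tested members fell. Nup62 had 120, 146 and 125 CPM in controls and 78.1, 86.3 and 89.3 CPM in null cells. Nup54, its partner in the same subcomplex, had 70.2, 89.4 and 51.5 CPM in controls and 38.3, 24.3 and 40.5 CPM in null cells. Neither gene had overlapping groups, and for Nup54 both groups spread over a wider range. Nup62 fell by 0.64 (SE 0.17, adjusted p = 0.0321 by edgeR; group alone -0.62, adjusted p = 0.221) and Nup54 by 0.87 in log2 (SE 0.25, adjusted p = 0.0459; group alone -1.03, adjusted p = 0.192). Nup98, which also serves as an anchor for mRNA export factors, was counted at only 2.80 to 11.0 CPM and had a ratio of -0.95 with the widest error of all members (SE 0.56, adjusted p = 0.305). Nup62cl had 0 to 21 reads and the readthrough gene Nup62-il4i1, which shares exons with Nup62, at most 1 read per library.

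In the Y complex of the outer ring 0 of 6 members passed, with a negative ratio in all 6 and no overlap of the groups in 1, Nup107. Nup85, the member with the most reads, had 143, 160 and 205 CPM in controls and 121, 171 and 206 CPM in null cells, and the groups overlapped (log2 ratio -0.22, SE 0.16, adjusted p = 0.416 by edgeR). Nup160 had the largest ratio of the complex at -0.69 (SE 0.26) and was the closest to the threshold of all members that did not pass, at an adjusted p of 0.109. It had 56.6, 77.1 and 70.2 CPM in controls and 39.4, 32.4 and 59.1 CPM in null cells, where null replicate 3 lay above the lowest control. Without null replicate 3, Nup160 passed at -0.99 (adjusted p = 0.0179 by edgeR). Nup133 had the ratio nearest to 0 of all members (-0.01, SE 0.19), and it shared 12.6% of its exon bases with antisense genes.

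On the cytoplasmic face, where export cargo leaves the pore, 0 of 2 members passed. Nup88 had 91.7, 103 and 84.5 CPM in controls and 80.8, 62.2 and 77.9 CPM in null cells, without overlap but with a small gap (log2 ratio -0.27, SE 0.18). Nup214 had 68.8, 73.8 and 45.3 CPM in controls and 42.2, 40.8 and 48.2 CPM in null cells (log2 ratio -0.39, SE 0.23), and the groups overlapped through control replicate 3. On the opposite side, 1 of 2 members of the nuclear basket fell. Nup50, which helps to release import cargo, had control levels of 42.8 and 47.8 CPM against a null level of 22.6 in the unlettered set, and a control level of 92.0 CPM against null levels of 69.0 and 51.7 in the lettered set. The gene fell set-adjusted, by 0.80 in log2 (SE 0.22, adjusted p = 0.0342 by edgeR), while across the sets the groups overlapped and the ratio with group alone was -0.35 (adjusted p = 0.809). Nup153 had controls between 55.4 and 56.3 CPM and null libraries at 24.1, 38.2 and 58.5 CPM, and did not pass (log2 ratio -0.71, SE 0.29, adjusted p = 0.136).

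Importin alpha proteins are the adaptors that read the classical nuclear localisation signal. In this family 2 of 5 tested members fell. Kpna3 had 95.9, 105 and 108 CPM in controls and 50.8, 41.9 and 84.9 CPM in null cells, with no overlap. Kpna1 had control levels of 46.5 and 64.3 CPM against a null level of 25.8 in the unlettered set, and a control level of 122 CPM against null levels of 47.0 and 76.3 in the lettered set, so that its groups separated within each set and overlapped across them. The log2 ratios were -0.87 for Kpna3 (SE 0.25, adjusted p = 0.0445 by edgeR; group alone -0.80, adjusted p = 0.283) and -1.04 for Kpna1 (SE 0.24, adjusted p = 0.0158; group alone -0.64, adjusted p = 0.627). Kpna2, the adaptor known for its high level in dividing cells, had the most reads of all members, at 1038, 1267 and 763 CPM in controls and 895, 527 and 653 CPM in null cells. Null replicate 1 lay above control replicate 3, and the ratio of -0.37 (SE 0.16) did not pass (adjusted p = 0.158). Per kilobase of annotated exon Kpna2 stood at 436 CPM in controls, and the next member, Nup85, at 76.0. Kpna4 and Kpna6 had ratios of -0.19 and -0.07, and Kpna7 had at most 2 reads per library.

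The importin beta and transportin family, the carriers themselves, had 4 of 11 members that fell and a negative ratio in all 11. Ipo5, which imports ribosomal proteins and histones among other cargo, had 214, 246 and 157 CPM in controls and 105, 66.8 and 90.4 CPM in null cells. Every null library lay well below every control, and the ratio of -1.07 (SE 0.18) had the smallest adjusted p of the members, 0.00268 by edgeR's quasi-likelihood test, with 0.0933 and a ratio of -1.24 for group alone. Ipo11 had 124, 141 and 132 CPM in controls and 61.8, 81.3 and 103 CPM in null cells, and fell by 0.81 in log2 (SE 0.20, adjusted p = 0.0221; group alone -0.69, adjusted p = 0.262). Tnpo3, the importer of serine and arginine rich splicing factors, had 118, 115 and 85.2 CPM in controls and 68.0, 45.8 and 66.8 CPM in null cells, and fell by 0.69 (SE 0.20, adjusted p = 0.0421; group alone -0.82, adjusted p = 0.209). In neither Ipo11 nor Tnpo3 did the groups overlap. These genes shared 5.51% and 5.88% of their exon bases with genes on the opposite strand.

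Kpnb1, importin beta itself and the partner of the alpha adaptors, stood at the threshold. It had 166, 158 and 155 CPM in controls and 68.4, 122 and 137 CPM in null cells. The controls were close together, and null replicate 1 was far below the other null libraries. The set-adjusted log2 ratio was -0.75 (SE 0.22, adjusted p = 0.0498 by edgeR; group alone -0.55, adjusted p = 0.442), with -1.24 in the unlettered set alone and -0.26 in the lettered. Without null replicate 1 it was -0.26 (adjusted p = 0.546), without control replicates 1 and 2 in turn -0.70 and -0.72 and without null replicate 2 -0.83 (adjusted p = 0.121, 0.110 and 0.0786), and Kpnb1 did not pass in these 4 fits. It passed without control replicate 3 (-1.26, adjusted p = 0.00995) and without null replicate 3 (-0.93, adjusted p = 0.0164). Kpnb1 shared 7.91% of its exon bases with an antisense gene. The 7 other members of the family, Ipo4, Ipo7, Ipo8, Ipo9, Ipo13, Tnpo1 and Tnpo2, had ratios from -0.75 to -0.23 and did not pass. Ipo4 shared 60.1% of its exon bases with a gene on the same strand, so its counts are uncertain.

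Of the 6 exportins 2 fell, and in 0 of the 6 were all null libraries below all controls. Xpo1, the main exporter of proteins with leucine-rich signals, had control levels of 90.7 and 89.0 CPM against a null level of 43.1 in the unlettered set, and a control level of 133 CPM against null levels of 66.3 and 98.1 in the lettered set. Xpot, the exporter of transfer RNA, had 51.3 and 54.0 CPM against 27.1 in the unlettered set and 125 CPM against 58.3 and 84.5 in the lettered set. In both genes every null library lay below the controls of its own set, and the groups overlapped across sets. Xpo1 fell by 0.87 in log2 (SE 0.21, adjusted p = 0.0176 by edgeR; group alone -0.59, adjusted p = 0.500) and Xpot by 0.88 (SE 0.21, adjusted p = 0.0176; group alone -0.44, adjusted p = 0.772). Xpo5, the exporter of microRNA precursors, had a ratio of -0.77 (SE 0.34, adjusted p = 0.160), and Xpo4 and Xpo6 had -0.40 and -0.20.

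Xpo7 differed in direction. It had control levels of 36.8 and 38.7 CPM against a null level of 50.5 in the unlettered set, and a control level of 59.8 CPM against null levels of 75.3 and 70.6 in the lettered set. Each null library lay above the controls of its own set, which held for 1 of 41 members and for 25.7% of all tested genes. The difference did not pass: the log2 ratio was 0.35 set-adjusted (SE 0.19, adjusted p = 0.256 by edgeR) and 0.54 with group alone (SE 0.31, adjusted p = 0.473). The ratio was 0.42 within the unlettered and 0.29 within the lettered set, and it stayed positive, from 0.28 to 0.54, in every alternative fit. Those fits reuse the same libraries, so the kept sign is no separate support. Xpo7 lies at chr14:70654246-70766628 on the minus strand (GRCm38), and no other annotated gene overlaps its exons.

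**Figure D3:**
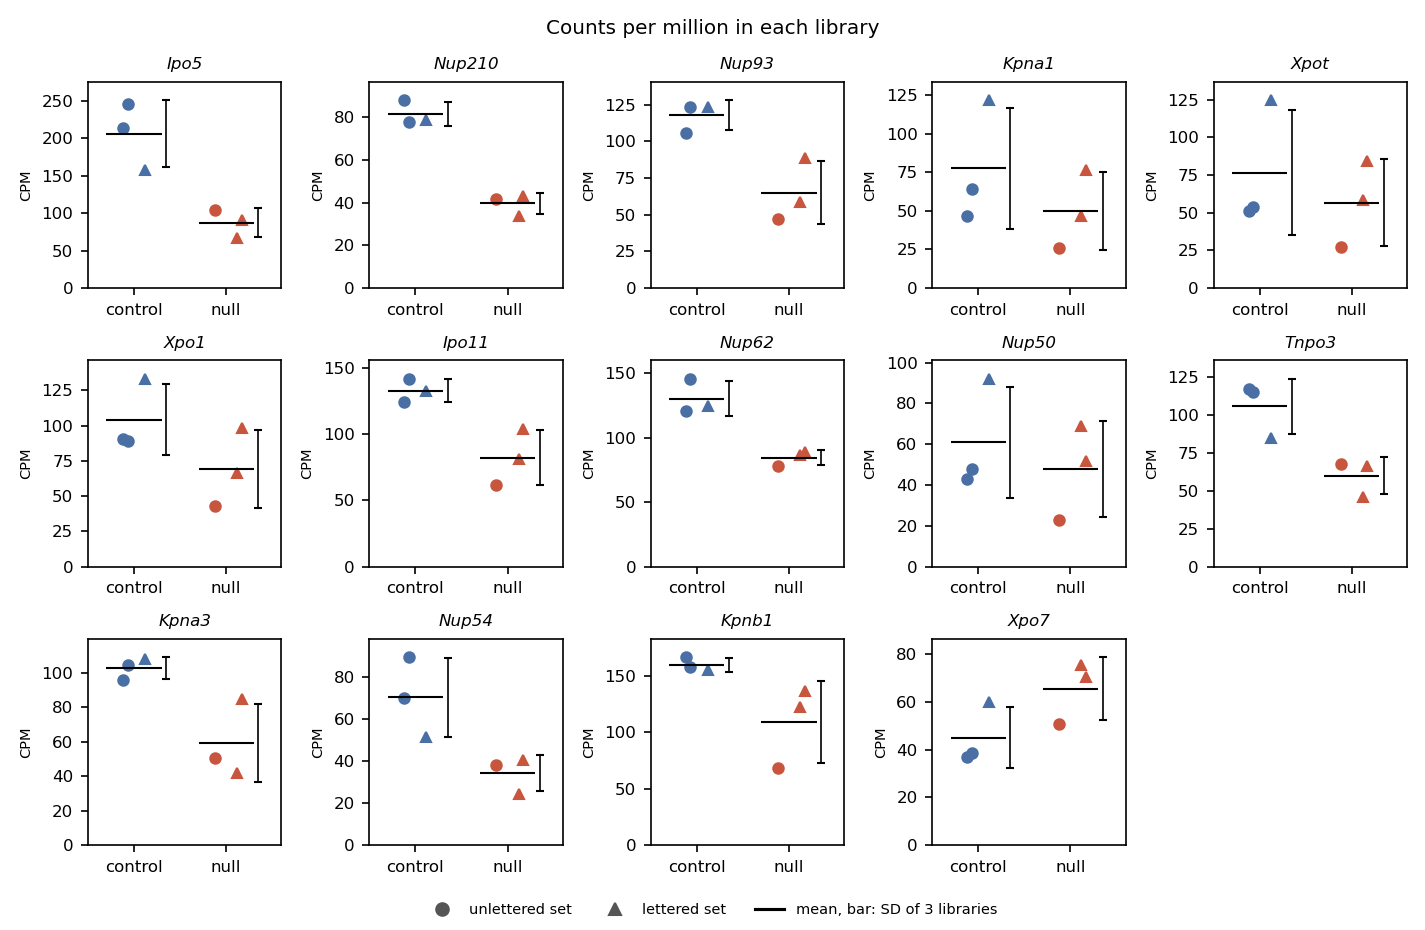
CPM of the 13 members that fell set-adjusted and of Xpo7 in each library, with circles for the unlettered and triangles for the lettered set, a line for the mean and a bar for the SD of 3 libraries. In 9 of the 13 members the groups do not overlap, and in Kpna1, Xpot, Xpo1 and Nup50 they separate only within each set. In 9.16% of all tested genes all null libraries lay below all controls.

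Separation of the groups was also counted without a model. All null libraries lay below all controls in 15 of the 41 members (36.6%), against 9.16% of all tested genes, and above them in 0 members, against 14.9%. The 15 were 9 of the members that fell and Nup35, Nup88, Nup107, Nup155, Nup188 and Tnpo2. Every null library lay below the controls of its own title set in 26 members (63.4%), against 21.5% of all genes. All 13 members that fell were among the 26. The 13 were picked by a test on the same libraries, so their place in these counts is no separate support. The summed level of all members was 3701, 4262 and 3633 CPM in controls and 2558, 2410 and 3023 CPM in null cells, with no overlap. As a share of gene reads the members made up 0.322%, 0.373% and 0.394% in controls and 0.205%, 0.284% and 0.385% in null cells. By this share null replicate 3 lay above control replicates 1 and 2. Of gene reads without globin genes they made up 0.587%, 0.671% and 0.627% in controls and 0.341%, 0.396% and 0.523% in null cells, with no overlap.

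The single null libraries differed in how far the members were lowered. Set against the controls of its own set, null replicate 1 had a median log2 ratio of -0.76 over the 41 members, null replicate 2 of -0.53 and null replicate 3 of -0.22, and 38, 38 and 30 members were negative. Control replicate 1 against control replicate 2 gave a median of -0.13, also with 30 members negative, so null replicate 3 had as many negative members as one control had against another. The medians of all tested genes lay between -0.01 and 0.08 in these comparisons.

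The sets share no library, and each gave its own ratio. The median over members was -0.76 in the unlettered set, against -0.37 in the lettered. In 37 of the 41 members (90.2%) the ratio was negative in both, as it was in 32.5% of all tested genes, and in Xpo7 it was positive in both. Kpna6, Nup133 and Xpo6 had opposite signs in the sets. Across the 41 members the ratios in the sets correlated with a Pearson r of 0.57 and a Spearman rho of 0.53, and across all tested genes of 0.63 and 0.53; genes are not independent of each other. A test of the difference between the sets called 0 members and 0.00951% of all genes by edgeR. At an unadjusted p under 0.05 were 1 of the 41 members, Kpnb1 (adjusted p = 0.568), and 758 of the 10512 tested genes.

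**Figure D4:**
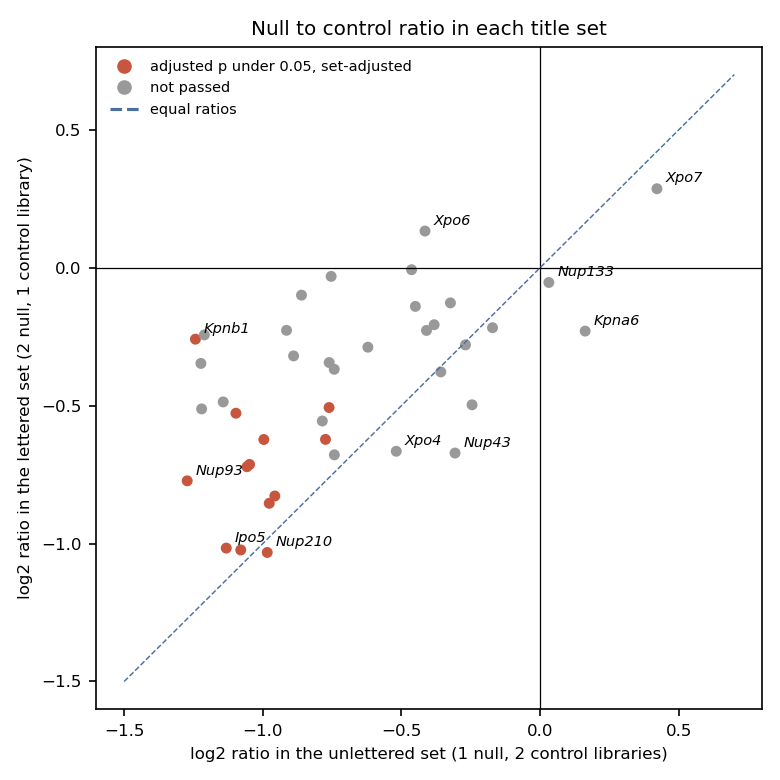
Log2 ratio of null to control within the lettered set against that within the unlettered set for the 41 tested members, with coloured points for members that fell set-adjusted and a dashed line of equal ratios. Most points lie below 0 on both axes, Kpnb1 stands at -1.24 and -0.26, and Xpo7 is the only point above 0 on both.

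Differences between the sets themselves were not particular to the members. With group in the model, 8 of the 41 members were higher and 2 lower in the lettered set by edgeR. Of all tested genes 17.7% and 10.9% were. The higher ones were Xpot (log2 difference 1.32), Kpna4 (1.28), Nup50 (1.22), Kpna1 (1.19), Xpo1 (0.75), Xpo7 (0.60), Nup133 (0.58) and Nup85 (0.53), and the lower ones were Ipo7 (-1.32) and Kpna2 (-0.60). Of the 13 members that fell in null cells, the 4 whose groups overlapped across sets, Kpna1, Nup50, Xpo1 and Xpot, were all among these. The null libraries of all 13 lay below the controls of their own set. Overlap across sets can then arise only through a difference in level between the sets, so this match is no separate result.

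Pathway genes outside the name pattern, taken from a list of other pore proteins, of the Ran cycle and of mRNA and snRNA transport, were tested in the same fits. Of 41 tested, 5 fell (12.2%) and 1 rose (2.44%) set-adjusted, beside 4.16% and 8.65% of all tested genes, and the median was -0.40, beside 0.044. With group alone 0 fell and 1 rose, and 17 of the 41 ratios were positive. Tpr, the filament protein of the basket, had 155, 145 and 200 CPM in controls and 79.2, 132 and 107 CPM in null cells and fell by 0.83 in log2 (SE 0.16, adjusted p = 0.0074 by edgeR; group alone -0.65, adjusted p = 0.313). Rangap1, which makes Ran hydrolyse its GTP at the cytoplasmic face, had 190, 217 and 207 CPM in controls and 131, 143 and 153 CPM in null cells and fell by 0.56 (SE 0.16, adjusted p = 0.0368; group alone -0.52, adjusted p = 0.291). In both genes the groups did not overlap. The mRNA export receptor Nxf1, at 150, 173 and 130 CPM in controls and 97.8, 90.6 and 98.4 in null cells, fell by 0.59 (SE 0.17, adjusted p = 0.0378; group alone -0.66, adjusted p = 0.207). The export helicase Ddx39b, at 230, 264 and 167 CPM in controls and 174, 90.4 and 112 CPM in null cells, fell by 0.61 (SE 0.16, adjusted p = 0.030; group alone -0.81, adjusted p = 0.290). The groups of Nxf1 did not overlap, and those of Ddx39b did, with null replicate 1 above control replicate 3. With 1 library left out, Tpr passed in all fits but the one without null replicate 1 (adjusted p = 0.110), and Rangap1, Nxf1 and Ddx39b passed only in the one without null replicate 3. Ran, the carrier of direction in transport, had 1225, 1367 and 1376 CPM in controls and 1103, 903 and 991 in null cells, without overlap, and did not pass (log2 ratio -0.39, SE 0.15, adjusted p = 0.117).

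The pathway gene that rose was Aaas, the nucleoporin aladin, 3.15-fold higher in null cells, at 64.8, 77.5 and 58.8 CPM in controls and 220, 192 and 187 CPM in null cells. The groups were far apart and the sets alike, with a log2 ratio of 1.66 (SE 0.16, adjusted p = 0.000103 by edgeR) and of 1.57 with group alone (adjusted p = 0.0321). Rae1, an mRNA export factor that binds Nup98, had control levels of 37.5 and 33.4 CPM against a null level of 17.8 in the unlettered set, and a control level of 219 CPM against null levels of 146 and 157 in the lettered set. It fell set-adjusted (log2 ratio -0.75, SE 0.18, adjusted p = 0.0203), while with group alone its ratio was 0.14 (SE 0.96, adjusted p = 0.966). Sec13, which serves both the Y complex and the coat of secretory vesicles, had 169 ± 6.98 CPM in controls and 199 ± 23.0 in null cells (SD, n = 3 each), with a ratio of 0.30 in log2 (adjusted p = 0.223), and the helicase Ddx39 had a ratio of -0.33 (adjusted p = 0.183).

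**Figure D5:**
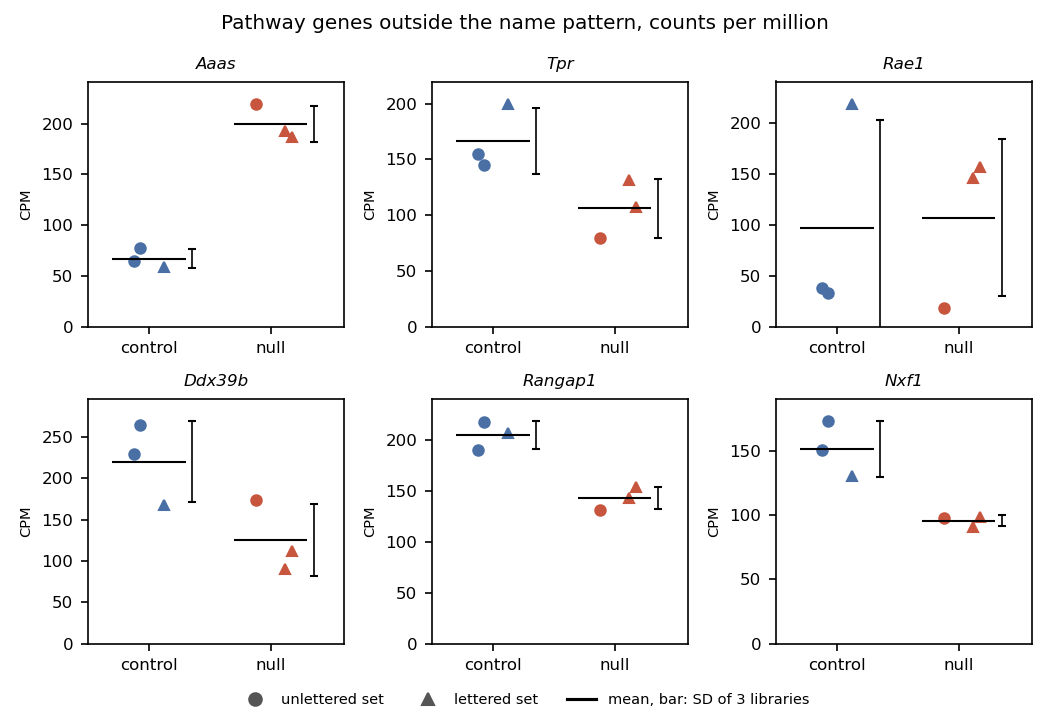
CPM of the 6 pathway genes outside the name pattern that passed set-adjusted, per library, with circles for the unlettered and triangles for the lettered set, a line for the mean and a bar for the SD of 3 libraries, drawn no lower than 0. Aaas is higher in all null libraries, and Rae1 splits by title set, with null below control within each set.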

How the data were processed

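Per the labels' protocols, RNA of sorted live cells was isolated with a small-input kit. The values are raw gene counts deposited by the authors, 1 table per library. The submitters' processing notes name HTSeq (version 0.6.1), TopHat2 (version 2.1.0), Trimmomatic (version 0.32), FastQC, edgeR and build mm9; no strand setting is given in these sources, so reads of overlapping antisense genes cannot be told apart. Rows naming no gene were left out of library sizes and tests.

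Tests were run with edgeR 4.0.16 in R 4.3.3: filterByExpr on group, TMM factors, glmQLFit (robust) and glmQLFTest, 2-sided, Benjamini-Hochberg over 10512 genes at 0.05. The set-adjusted fit had 3 residual degrees of freedom and the group-alone fit 4; the set-adjusted fit was first tested on simulated data. The set-adjusted fit was taken as the main one because the sets hold the groups in unequal numbers. CPM use TMM-scaled library sizes, and 3 counts correspond to 0.140 to 0.445 CPM, for counting error only. Within a set, the log2 ratio is mean log2 CPM of null less that of control, at prior count 2. Exon overlap, lengths and gene positions come from GENCODE M21 (GRCm38) and promoters from RefSeq (GRCm38.p6), matched by symbol, since no annotation of mm9 was used here.

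The members and lists were chosen with earlier results of these data known. Named were Xpo7, every member or pathway gene that passed, those with the most reads or the largest ratio in a role group, the pathway gene with the most reads in each list, and members that failed the filter; others are named where a count of members needed them, after their values were seen. The labels do not say whether replicates are separate embryos, and p-values therefore measure only how these samples spread, which may be technical. No library was taken as a duplicate, since the chi-square per degree of freedom between same-group libraries was 21.9 to 369. Alternatives were RLE factors, TMM without globin genes, DESeq2 1.42.0, no filter, at least 10 reads in every library, a term for Y-linked transcripts and leaving out each library.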

Additional observations from a re-analysis of the deposited data

How the results depend on the processing

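The count of 13 members that fell set-adjusted, and its genes, were the same with RLE factors, TMM without globin genes and DESeq2. Of all tested genes 4.95%, 5.13% and 8.39% fell in these fits, beside 4.16% in the main fit. The count of members was 16 without a filter and 11 with at least 10 reads in every library, where 3.8% and 4.38% of all tested genes fell. It was 0 with group as the only term, where 0.00951% of all tested genes fell. With Y-linked transcripts as a term it was 0 as well, where 0.59% of all tested genes fell. Control replicate 1 is the only control with such transcripts. With 1 library left out the count ran from 0 (without null replicate 1) to 17 (without null replicate 3), where 0.368% and 6.68% of all tested genes fell. With group alone, 1 member fell without a filter. The members' median log2 ratio ran from -0.79 (without control replicate 3) to -0.34 (without null replicate 1). Without a filter the median of all genes moved from 0.044 to 0.20. Of the other pathway genes, 5 fell. The count was 0 with group alone, 1 with Y-linked transcripts as a term and 3 with at least 10 reads in every library. It was 8 with RLE factors and with TMM without globin genes, 11 without a filter and 12 with DESeq2. The shares of all tested genes that fell under these settings are those given above. With 1 library left out the count was 1 to 11, where 0.368% to 6.68% of all tested genes fell. Rae1 changed sign with group alone (0.14). Over 377 values of 29 named genes under these settings, 272 kept their direction and side of the threshold, 101 lost the call, 3 gained it and 1 reversed; the causes were not tested. Aaas kept its call in each. No paired analysis was possible because the replicate numbers were given in accession order and the labels tie no null library to a control. Control replicate 1, at 7756940 reads, limits the precision of members with few reads such as Nup98. This library also had 42.9% of its counted alignments in no gene, against 7.72% in control replicate 2 and 6.07% in null replicate 1. No such value was given for the lettered set, and the part of this difference was not tested.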
